A study of Mus musculus with 8 samples.

Results

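The comparison described here set c-Fos cells treated with the MEK inhibitor UO126 against cells with an empty vector, across all genes. It used 4 of 8 libraries, 2 in each group. All came from ASZ001, 1 mouse cell line of basal cell carcinoma, a skin tumour of keratinocyte origin driven by Hedgehog signalling. Every group carried a doxycycline-inducible vector and received doxycycline for 24 h. The UO126 group carried the c-FOS vector and was then given UO126 at 10 µM for 6 h. A vehicle group, c-Fos cells given DMSO for 6 h, stood beside it. c-Fos cells given afatinib, an EGFR family inhibitor, at 5 µM for 6 h entered the shared estimate of spread, and their CPM are given for a few genes. In the gene-by-gene results, "the other groups" are the empty-vector and DMSO groups, without the afatinib group. For the empty-vector group the labels name doxycycline alone. They give neither a solvent nor whether these cells were collected at 24 h or 6 h later. The vector, the inhibitor and possibly its solvent and the collection time thus differ together in the main comparison and cannot be told apart there. The values with DMSO are therefore printed beside most results, but not all. Solvent and collection time may differ between the DMSO and empty-vector groups as well. The labels do not give whether the vector held the mouse or the human gene, nor whether the cells were a clone or a pool, nor whether the libraries came from separate cultures. The p-values thus measure the spread between these libraries. Of 24883 gene entries, 12879 had enough counts to be tested. The question was which part of the c-Fos state stays, and what is new, when MEK is blocked.

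c-Fos is a bZIP protein that pairs with a JUN protein to form AP-1, a transcription factor that binds the element TGANTCA. In keratinocytes AP-1 is known for driving cornified envelope genes, proteases and wound-response genes. MEK is the kinase that switches on ERK. ERK in turn raises transcription of early growth genes such as Fosl1 and Ccnd1, phosphorylates and stabilises FOS proteins, and induces its own brakes, among them the DUSP phosphatases and the Sprouty and SPRED proteins.

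The libraries held between 17901974 and 23126048 counts. The UO126 pair stood apart from the other pairs: its counts differed by a chi-square of 26.4 per degree of freedom, against 5.04 for the empty-vector pair and 9.03 for the DMSO pair. Of 7746 genes with at least 20 CPM (counts scaled to library size and composition), 161 differed by more than 0.5 on the log2 scale between the UO126 libraries, 154 of them higher in replicate 1. The ribosomal precursor Rn45s took 1.62% of counts in UO126 replicate 1 and 3.55% in replicate 2. It was among the counts of the chi-square, and its part in that value was not tested. The median absolute log2 difference between the libraries of a pair was 0.131 for UO126, 0.0856 for empty vector and 0.0929 for DMSO. Without UO126 replicate 1 the main comparison called 2550 genes higher and 2452 lower, and without replicate 2 it called 2672 and 2226. The keratinocyte markers (8 of 8 tested) summed to between 17434 and 17550 CPM in the empty-vector libraries and between 19601 and 20561 CPM with UO126. Fibroblast markers (5 of 10 tested, Lum and Thy1 at 0 counts) summed to between 5.56 and 5.75 CPM with empty vector and between 9.96 and 11.3 CPM with UO126. Leukocyte markers (2 of 8 tested, Tyrobp at 0) summed to between 5.75 and 6.21 CPM and between 7.95 and 9.66 CPM in the same order. Among them Csf1r, a macrophage growth factor receptor, stood at 0.130 and 0.194 CPM with empty vector and 3.04 and 3.87 CPM with UO126. Endothelial markers (3 of 7 tested, Kdr at 0) summed to between 101 and 110.2 CPM and between 138 and 143 CPM, and melanocyte markers (2 of 7 tested, Tyr at 0) to between 52.1 and 60.8 CPM and between 53.1 and 65.2 CPM. The part of other cell types in the results was not tested. In bulk RNA, fewer cells of a type and less RNA per cell cannot be told apart.

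Fos itself was counted 937.5 and 1040.5 times in the empty-vector libraries and 18209 and 18979 times in the UO126 libraries. In CPM these were 40.6 and 50.5 with empty vector, 1163 and 1120.5 with DMSO and 813 and 875 with UO126. The UO126 level was thus far above the empty-vector level in both libraries and below the DMSO level in both. The log2 fold change against empty vector was 4.21 ± 0.094 (SE, n = 2 libraries a group, edgeR quasi-likelihood adjusted p = 7.2e-12), and against DMSO it was -0.44 ± 0.080 (adjusted p = 0.0015). The file gives 1 row for Fos, so transcripts from the vector and from the endogenous locus are counted together.

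Across all genes, 2352 were called higher and 2502 lower in UO126-treated c-Fos cells than in empty-vector cells at an edgeR adjusted p under 0.05, which is 18.3% and 19.4% of those tested (37.7% in either direction). At 2-fold or more, 533 (4.14%) were higher and 376 (2.92%) lower, 7.06% in either direction. The libraries of the compared groups did not overlap for 8689 genes (67.5%). The median log2 fold change over all genes was -0.02. Against DMSO in c-Fos cells, UO126 libraries had 1788 genes higher (13.9%) and 1893 lower (14.7%), 28.6% in either direction, of which 202 higher (1.57%) and 146 lower (1.13%) at 2-fold or more (2.7% together). Scaling by library size alone turned that split to 2200 higher and 1477 lower. DMSO-treated c-Fos cells against empty vector had 2771 higher (21.5%) and 2662 lower (20.7%), 42.2% in either direction, of which 494 higher (3.84%) and 512 lower (3.98%) at 2-fold or more (7.81% together). With library size alone this comparison had 2321 higher and 3136 lower. These comparisons share libraries, so each is given on its own and no overlap between them is read.

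Most of the genes with the largest rises had few counts in the empty-vector cells. Genes with near-identical copies and unnamed transcripts were passed over in choosing the 10 largest rises and falls, which left out Sprr1a, described with the squamous genes, whose log2 fold change of 5.13 ± 0.16 would have ranked among the 10 rises. Nlrp2, a NOD-like receptor family gene, had 0.173 and 0.194 CPM with empty vector, 15.5 and 13.5 with DMSO and 27.5 and 27.3 with UO126. The empty-vector libraries held only 3.5 and 4.5 counts of it, so its log2 fold change of 7.18 ± 0.19 (adjusted p = 9.5e-12) rests on very few reads in the lower group. Siglecg, a sialic acid-binding lectin known from B cells, went from 0.173 and 0.194 CPM with empty vector to 16.2 and 17.9 CPM with UO126, with 11.7 and 8.18 CPM under DMSO. Nfatc2, a calcium-responsive transcription factor, had 0.173 and 0.340 CPM with empty vector, 9.69 and 7.95 with DMSO and 15.3 and 15.3 with UO126. The largest rises and falls were chosen with the UO126 libraries, so their p-values against DMSO do not allow for that choice. In Nlrp2, Siglecg and Nfatc2 both UO126 libraries lay above both DMSO libraries, and the log2 differences between UO126 and DMSO were 0.92 ± 0.094 (edgeR adjusted p = 1.2e-05), 0.77 ± 0.14 (0.0012) and 0.79 ± 0.15 (0.0016). Blnk, an adaptor of B cell receptor signalling, had the same order, with 0.346 and 0.680 CPM with empty vector, 7.95 and 7.67 with DMSO and 13.8 and 14.6 with UO126.

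Phex, an endopeptidase-family gene of phosphate handling, stood at 0.563 and 0.388 CPM with empty vector, 23.5 and 25.3 with DMSO and 24.6 and 17.4 with UO126. Inpp4b, a phosphoinositide phosphatase, stood at 4.85 and 4.76 CPM with empty vector, 168 and 164 with DMSO and 191 and 131 with UO126. For both genes the DMSO and UO126 libraries overlapped, and the log2 differences between UO126 and DMSO had 95% intervals of -0.54 to 0.11 and -0.47 to 0.39. Aqp1, a water channel, also overlapped, at 7.46 and 6.53 CPM with DMSO and 6.79 and 6.92 with UO126 against 0.260 and 0.486 with empty vector. Ano1, a calcium-activated chloride channel, and Emp3, a membrane protein, remained far above empty vector but below DMSO. Ano1 had 0.649 and 0.777 CPM with empty vector, 23.7 and 24.8 with DMSO and 18.4 and 18.4 with UO126, and Emp3 had 3.03 and 3.88 CPM with empty vector, 79.9 and 84.8 with DMSO and 58.2 and 58.8 with UO126. Outside this top 10, Kcnn4, a calcium-activated potassium channel, lay between the other groups. It had 0.952 and 1.46 CPM with empty vector, 55.2 and 56.7 with DMSO and 14.7 and 17.9 with UO126, a log2 fold change of 3.77 ± 0.18 against empty vector and -1.78 ± 0.11 against DMSO.

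**Figure D1:**
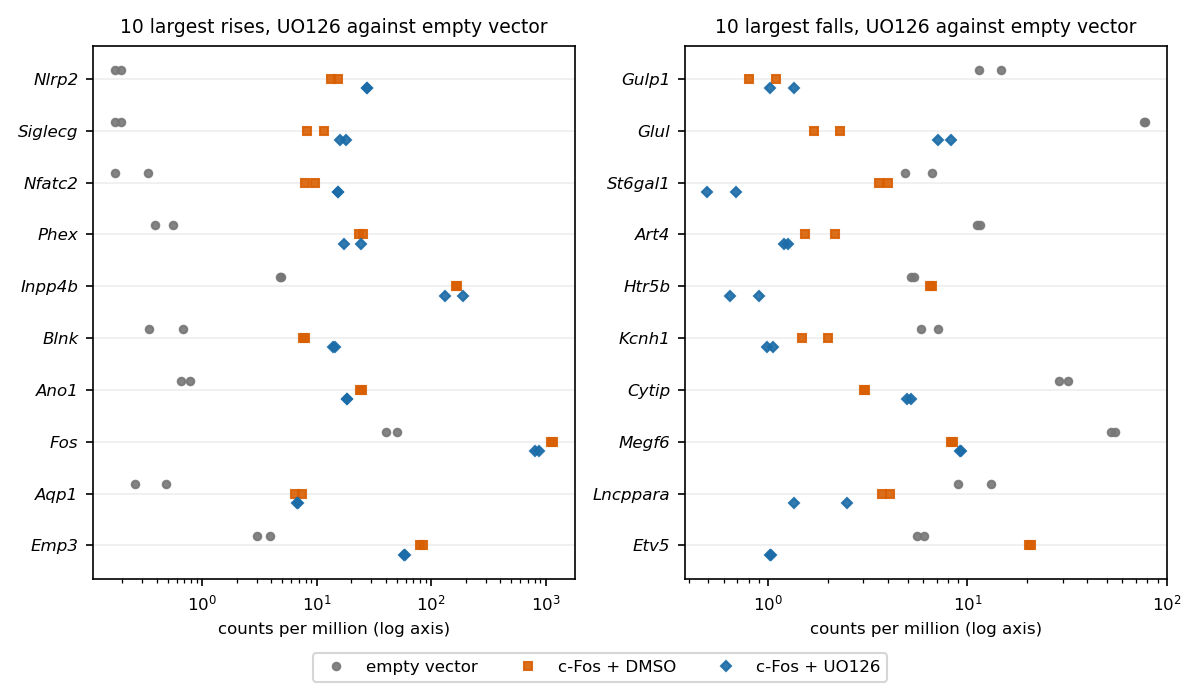
CPM (log axis) of the 10 genes with the largest rise (left) and the 10 with the largest fall (right), genes with near-identical copies such as Sprr1a passed over, in UO126-treated c-Fos cells against empty vector, 1 point per library, 2 libraries per group. The genes were chosen by the difference between the empty-vector and UO126 points. The DMSO points of Etv5, at 20.8 and 20.5 CPM, lie above its empty-vector points, while those of Glul, at 2.29 and 1.70 CPM, lie below its UO126 points.

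Most of the genes with the largest falls were also low with DMSO. Gulp1, an adaptor for engulfment of dead cells, had 14.7 and 11.4 CPM with empty vector, 1.09 and 0.795 with DMSO and 1.34 and 1.01 with UO126 (log2 fold change against empty vector -3.46 ± 0.20, adjusted p = 1.6e-08). Glul, which encodes glutamine synthetase, had 77.9 and 76.6 CPM with empty vector, 2.29 and 1.70 with DMSO and 7.14 and 8.30 with UO126. It was thus 10.0-fold lower than empty vector, and at the same time higher than with DMSO by 1.94 ± 0.17 on the log2 scale (adjusted p = 2.8e-06). Cytip, a cytohesin-binding protein, followed that order at 31.9 and 28.8 CPM with empty vector, 3.05 and 3.01 with DMSO and 5.18 and 4.98 with UO126. Megf6, an EGF-repeat protein, had 52.5 and 55.0 CPM with empty vector, 8.27 and 8.41 with DMSO and 9.20 and 9.22 with UO126. Art4, an ADP-ribosyltransferase family gene, fell by 3.20 on the log2 scale, from 11.1 and 11.6 to 1.25 and 1.20 CPM, and the potassium channel Kcnh1 fell by 2.66, from 7.10 and 5.83 to 0.982 and 1.06 CPM. With DMSO Art4 stood at 1.52 and 2.16 CPM and Kcnh1 at 1.47 and 1.99 CPM. The long noncoding RNA Lncppara stood at 8.92 and 13.1 CPM with empty vector and 1.34 and 2.49 with UO126, with a log2 fold change of -2.11 without UO126 replicate 1 and -2.99 without replicate 2.

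In 3 of the 10 largest falls the DMSO libraries lay nearer to empty vector than to UO126, or above empty vector. St6gal1, a sialyltransferase, had 6.67 and 4.86 CPM with empty vector, 3.59 and 3.98 with DMSO and 0.491 and 0.692 with UO126. Htr5b, a serotonin receptor gene, had 5.19 and 5.39 CPM with empty vector, 6.64 and 6.48 with DMSO and 0.893 and 0.646 with UO126. Etv5, an ETS-family transcription factor induced by ERK, had 6.06 and 5.58 CPM with empty vector, 20.8 and 20.5 with DMSO and 1.03 and 1.01 with UO126. Etv5 therefore went from above the empty-vector level to below it, with log2 fold changes of -2.51 ± 0.18 against empty vector and -4.33 ± 0.15 against DMSO (adjusted p = 1.1e-07 and 2.7e-09).

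Of 27 tested invasion and matrix-remodelling genes, 16 were higher and 4 lower than with empty vector, with a median log2 fold change of 0.51. The same 27 had 16 higher and 7 lower in DMSO-treated c-Fos cells against empty vector. Mmp10, a stromelysin protease, had 1.73 and 1.75 CPM with empty vector, 13.6 and 14.2 with DMSO and 24.9 and 23.8 with UO126, a log2 fold change of 3.80 ± 0.13 against empty vector. Its UO126 libraries lay above the DMSO libraries, by 0.81 ± 0.097 (adjusted p = 4.7e-05). Mmp13, a collagenase, had 0.693 and 0.583 CPM with empty vector, 6.31 and 7.33 with DMSO and 8.84 and 8.86 with UO126 (3.78 ± 0.21). Plaur, the receptor of urokinase, had 3.98 and 4.27 CPM with empty vector, 74.0 and 70.7 with DMSO and 56.2 and 54.7 with UO126 (3.75 ± 0.099), lower with UO126 than with DMSO. Timp1, a metalloprotease inhibitor, rose to 32.5 and 32.0 from 4.67 and 3.98 CPM. Timp3, another inhibitor of that family, was at 2314 and 2246 CPM with empty vector, 3742 and 3613 with DMSO and 5395 and 5058 with UO126. The members that fell included the membrane protease Mmp14, at 255 and 255 CPM with empty vector and 195 and 202 with UO126.

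Of 35 squamous differentiation genes 22 were tested, of which 13 were higher and 1 lower than with empty vector, with a median log2 fold change of 0.96. DMSO-treated cells against empty vector had 11 of the 22 higher and 1 lower. Against DMSO, 8 of the 22 were higher with UO126 and 2 lower. Sprr1a, a cornified envelope precursor, had 0.952 and 1.70 CPM with empty vector, 34.5 and 33.0 with DMSO and 46.9 and 45.2 with UO126, a log2 fold change of 5.13 ± 0.16 (adjusted p = 4.5e-11). Sprr1b, its close relative, had 0.693 and 1.07 CPM with empty vector, 9.91 and 11.3 with DMSO and 11.1 and 11.1 with UO126 (3.66 ± 0.19). Ppl, which encodes the envelope scaffold periplakin, had 146 and 141 CPM with empty vector, 447 and 433 with DMSO and 588 and 602 with UO126 (2.05 ± 0.059). Krt16, a stress keratin, had 55.0 and 51.0 CPM with empty vector, 124 and 139.9 with DMSO and 269.5 and 303 with UO126. Krt16 differed from DMSO by 1.12 ± 0.081 on the log2 scale, and DMSO from empty vector by 1.32 ± 0.085. Krt6a, its pairing partner, had 560.1 and 551 CPM with empty vector, 1592 and 1650.5 with DMSO and 1842 and 2117 with UO126. Evpl, which encodes envoplakin, lay above empty vector and below DMSO, with 105 and 106 CPM with empty vector, 280.3 and 274 with DMSO and 169 and 175 with UO126. The Sprr and keratin genes have near-identical copies between which reads may have been split, so their values are uncertain. Terminal genes were near or below detection: Flg2 and Krt1 had at most 1 count in each of these libraries, and Lor, the main envelope protein, named here after its values were seen, had 1.30 and 1.07 CPM with empty vector and 1.34 and 1.11 with UO126 (95% interval -0.53 to 0.61).

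Promoters of Sprr1a, Mmp10, Mmp13 and Plaur are shown because AP-1 elements could be read in them. They are the 250 bases before the gene start in RefSeq (GRCm38.p6, not the mm9 build of the count file), printed 5′ to 3′ on the gene's strand with TGANTCA in capitals.
Sprr1a (chr3:92485882-92486131, - strand): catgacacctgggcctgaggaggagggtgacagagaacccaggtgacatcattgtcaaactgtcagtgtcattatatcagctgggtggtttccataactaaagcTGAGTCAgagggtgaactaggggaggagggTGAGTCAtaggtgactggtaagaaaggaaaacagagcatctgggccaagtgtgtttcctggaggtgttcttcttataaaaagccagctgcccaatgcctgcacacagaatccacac
Mmp10 (chr9:7502092-7502341, + strand): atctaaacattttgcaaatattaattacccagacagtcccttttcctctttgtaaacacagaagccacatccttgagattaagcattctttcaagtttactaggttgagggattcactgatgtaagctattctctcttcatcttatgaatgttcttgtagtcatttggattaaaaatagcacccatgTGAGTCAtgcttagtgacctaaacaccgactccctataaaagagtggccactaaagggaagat
Mmp13 (chr9:7272264-7272513, + strand): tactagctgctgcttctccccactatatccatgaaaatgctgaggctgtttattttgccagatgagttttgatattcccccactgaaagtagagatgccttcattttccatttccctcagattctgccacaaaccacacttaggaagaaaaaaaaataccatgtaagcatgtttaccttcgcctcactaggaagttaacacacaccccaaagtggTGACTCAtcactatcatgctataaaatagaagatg
Plaur (chr7:24462233-24462482, + strand): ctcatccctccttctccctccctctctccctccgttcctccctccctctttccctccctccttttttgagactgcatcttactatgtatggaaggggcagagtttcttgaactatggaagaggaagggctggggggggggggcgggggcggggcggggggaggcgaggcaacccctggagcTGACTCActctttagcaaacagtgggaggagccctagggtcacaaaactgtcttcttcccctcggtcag
The first base of the element lay at -146 and -116 from the start in Sprr1a, -63 in Mmp10, -35 in Mmp13 and -69 in Plaur. In Sprr1a and Plaur 1 match each overlaps TGANNNNGC, the antioxidant-type sequence. The sequence was found on either strand in 5.71% of the 9954 tested genes with a promoter in the table, and in 6.75% of all 32851 windows of the table. It was present in 64 of 378 genes (16.9%) called at least 2-fold higher and in 22 of 264 (8.33%) called at least 2-fold lower. Of the 35 squamous list members, tested or not, 22 had a promoter in the table, and 10 of these held it (45.5%). They are not the 22 tested members, since Krt16 and Ppl had no promoter there. Of the 29 invasion list members, tested or not, 21 had a promoter and 7 held it (33.3%). Lists without a clear rise held it too, in 6 of 17 cytokine promoters (35.3%) and 4 of 16 interferon response promoters (25.0%). Most called interferon genes were lower than with empty vector. It was in 3 of 12 NRF2 promoters (25.0%) and 0 of 18 DNA replication promoters. Over all 27025 genes of the table, tested or not, the share was 7.82%. None of the 10 genes named as the largest rises, a choice that passed over Sprr1a, held it in this window. Among the 10 largest falls, 9 had a promoter in the table and St6gal1 held the sequence, at -15 of the window printed here, 1 of 3 for its annotated starts.
St6gal1 (chr16:23290220-23290469, + strand): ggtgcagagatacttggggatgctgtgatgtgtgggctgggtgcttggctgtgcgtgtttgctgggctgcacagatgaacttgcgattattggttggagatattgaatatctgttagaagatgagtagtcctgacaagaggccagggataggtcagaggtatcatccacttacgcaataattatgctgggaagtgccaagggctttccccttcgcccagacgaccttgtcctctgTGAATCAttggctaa
The CRE-type element TGACGTCA was found in 3.17% of tested genes and 2.91% of those at least 2-fold higher, and the ETS-type sequence CCGGAAG in 15.8% and 6.61%. A match describes the letters only, and absence from this window says nothing of elements elsewhere.

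Other AP-1 genes moved unevenly. Of 9 tested members, Fos included, 5 were higher and 2 lower than with empty vector (1 lower without empty vector replicate 2). Fosl1, which encodes FRA1 and is a known ERK-dependent gene, had 1.99 and 2.09 CPM with empty vector, 30.6 and 33.6 with DMSO and 14.9 and 13.7 with UO126. Its log2 fold change was 2.80 ± 0.14 against empty vector and -1.17 ± 0.094 against DMSO, so it lay between the other groups without overlap. Fosl2, which encodes FRA2, had 581 and 532 CPM with empty vector, 607 and 585 with DMSO and 974 and 1072 with UO126. It was higher with UO126 than with empty vector or DMSO (0.88 ± 0.066 against empty vector, adjusted p = 2.2e-07), and stood at 1164 and 1138 CPM with afatinib. Jun, the main partner, was at 234 and 216 CPM with empty vector, 122 and 123 with DMSO and 129.8 and 132 with UO126. Jun remained below empty vector (-0.78 ± 0.065, adjusted p = 5.5e-07), and UO126 against DMSO had a 95% interval of -0.05 to 0.24. Atf3, a stress-induced member, was at 24.7 and 24.2 CPM with empty vector, 12.2 and 13.4 with DMSO and 25.3 and 22.8 with UO126, with a 95% interval of -0.21 to 0.17 against empty vector.

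ERK output genes split. Of 21 tested members, 7 were higher and 8 lower than with empty vector (median -0.16). Against DMSO, 15 were lower and 2 higher with UO126 (median -0.85). In DMSO-treated cells against empty vector, 11 were higher and 4 lower (median 0.72). The ERK phosphatase gene Dusp6 had 46.7 and 50.5 CPM with empty vector, 55.7 and 62.2 with DMSO and 14.5 and 15.5 with UO126, a log2 fold change of -1.70 ± 0.089 against empty vector (adjusted p = 5.7e-09). Spry1, a Sprouty brake, had 13.2 and 12.5 CPM with empty vector, 9.14 and 9.89 with DMSO and 3.44 and 4.20 with UO126 (-1.76 ± 0.13). Spred2, another brake, had 56.5 and 53.2 CPM with empty vector, 61.7 and 57.2 with DMSO and 34.4 and 31.3 with UO126 (-0.74 ± 0.077). Hmga2, a chromatin protein, had 6.06 and 4.81 CPM with empty vector, 11.0 and 12.8 with DMSO and 1.88 and 1.75 with UO126 (-1.58 ± 0.19). In Dusp6, Spry1, Spred2 and Hmga2 both UO126 libraries lay below all empty-vector and DMSO libraries. Dusp4, an inducible nuclear phosphatase, lay between, with 1.47 and 1.36 CPM with empty vector, 10.4 and 10.5 with DMSO and 4.38 and 4.89 with UO126, and so did the ETS gene Etv4 with 8.31 and 10.0 CPM with empty vector, 46.7 and 49.8 with DMSO and 15.5 and 15.1 with UO126. Epha2, an ephrin receptor, and Phlda1 were not called against empty vector, with 95% intervals of -0.24 to 0.01 and -0.17 to 0.26, and differed from DMSO by -0.83 ± 0.059 and -0.81 ± 0.098, both called lower.

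Transcripts of the kinases of this cascade were also measured. Map2k1, which encodes MEK1, had 50.9 and 51.7 CPM with empty vector, 58.5 and 60.5 with DMSO and 57.5 and 54.6 with UO126. Map2k2, which encodes MEK2, had 170.4 and 186 CPM with empty vector, 209.8 and 208 with DMSO and 178 and 207 with UO126. These 2 kinases are the targets of UO126, and neither transcript was called, with 95% intervals of -0.03 to 0.28 and -0.07 to 0.29 against empty vector. Without UO126 replicate 1, Map2k2 was called higher (log2 fold change 0.23, adjusted p = 0.018). Mapk3, which encodes ERK1, was at 42.2 and 45.3 CPM with empty vector and 51.1 and 54.7 with UO126 (0.27 ± 0.072, adjusted p = 0.0085, but 0.066 without empty vector replicate 1). Of the 15 genes from RAS to ERK, 3 were higher and 2 lower (33.3% called, against 37.7% of all genes tested). The higher count was 1 without empty vector replicate 1 and 5 without UO126 replicate 2. The 2 lower were Nf1 and Rasa1, both RAS GTPase-activating proteins, at -0.50 ± 0.096 and -0.47 ± 0.090.

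Among 15 tested EGFR family ligands, receptors and brakes, 5 were higher and 2 lower than with empty vector, whereas 6 were lower and 1 higher than with DMSO. This was 46.7% called in each comparison, against 37.7% and 28.6% of all genes tested. Tgfa, an EGFR ligand, had 17.1 and 15.7 CPM with empty vector, 52.3 and 54.4 with DMSO and 29.6 and 27.7 with UO126. Ereg, another ligand, had 4.76 and 4.52 CPM with empty vector, 16.1 and 15.5 with DMSO and 9.69 and 7.52 with UO126, and Areg had 0.433 and 0.971 CPM with empty vector, 6.97 and 9.03 with DMSO and 3.62 and 3.14 with UO126. For Tgfa, Ereg and Areg the UO126 libraries lay between the other groups without overlap. Egfr, the receptor, was lower with UO126 than with empty vector (-0.72 ± 0.093), at 154 and 136 CPM with empty vector, 81.6 and 68.0 with DMSO and 86.2 and 89.2 with UO126. Lrig1, a membrane brake of EGFR signalling and a stem cell marker of skin, had 194 and 176 CPM with empty vector, 76.8 and 66.6 with DMSO and 63.6 and 64.6 with UO126 (-1.53 ± 0.077).

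**Figure D2:**
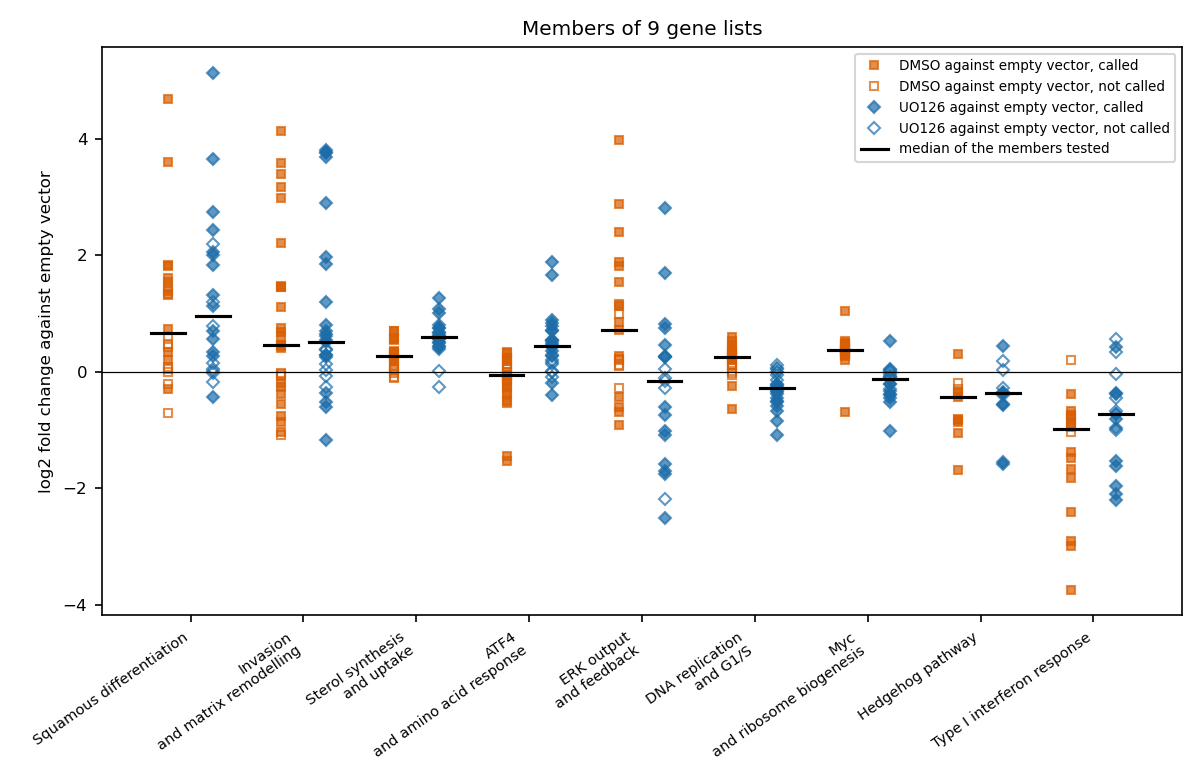
Log2 fold change against empty vector of every tested member of 9 gene lists, for DMSO-treated and UO126-treated c-Fos cells. Filled symbols were called at adjusted p under 0.05 and black bars are medians. Both series use the same empty-vector libraries. The median of the ERK list is 0.72 with DMSO and -0.16 with UO126, that of the DNA replication list 0.25 and -0.29, and that of the ATF4 list -0.05 and 0.43.

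Some genes that differed between DMSO-treated c-Fos cells and empty vector were near the empty-vector level under UO126. They were chosen by these values (a 95% interval within 0.5 of empty vector), so they are described without a test. Ccnd1, which encodes cyclin D1, had 225 and 230.4 CPM with empty vector, 643 and 687 with DMSO and 280.2 and 260.5 with UO126. Its neighbour on the genome, Oraov1, had 45.3 and 50.9 CPM with empty vector, 117 and 130.1 with DMSO and 55.6 and 48.2 with UO126. Rgs16, a regulator of G protein signalling, had 3.90 and 3.74 CPM with empty vector, 15 and 16.7 with DMSO and 3.66 and 3.55 with UO126. For Rgs16 the UO126 libraries lay just below the empty-vector libraries, while those of Ccnd1 lay above them. Maff, a small MAF transcription factor, had 8.22 and 7.67 CPM with empty vector, 21.7 and 20.6 with DMSO and 6.70 and 6.83 with UO126. The remaining genes of this kind named by the rule were Fam89a, Rhoc, a small GTPase, Lad1, a basement membrane anchor protein, and Glis2, a GLI-like zinc finger gene. Their log2 intervals against empty vector were 0.01 to 0.47, 0.20 to 0.49, 0.16 to 0.42 and -0.46 to -0.08.

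The opposite pattern, low with DMSO and near empty vector with UO126, was seen in Nrep, at 89.1 and 93.6 CPM with empty vector, 21.0 and 28.1 with DMSO and 86.4 and 78.4 with UO126. Sox6, a SOX transcription factor, had 68.0 and 59.4 CPM with empty vector, 19.8 and 15.7 with DMSO and 54.2 and 57.7 with UO126. Ddit4, which encodes the mTORC1 inhibitor REDD1, had 47.4 and 46.3 CPM with empty vector, 18.6 and 15.6 with DMSO and 50.9 and 52.4 with UO126. Wnt4, a Wnt ligand, lay between, with 661 and 700.3 CPM with empty vector, 264 and 243 with DMSO and 512 and 558 with UO126. Aldh1l2, a mitochondrial folate enzyme, had 42.5 and 39.0 CPM with empty vector, 17.7 and 14.7 with DMSO and 49.9 and 45.3 with UO126. Pclo, Daam2, a formin, and Klf12, a Krüppel-like factor, had log2 intervals against empty vector of -0.21 to 0.39, -0.36 to 0.18 and -0.19 to 0.44.

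Most genes of DNA replication and the G1/S transition were below the empty-vector level. Of 22 tested members 15 were lower and 0 higher than with empty vector, with a median of -0.29. Against DMSO 20 were lower and 0 higher (median -0.48), and in DMSO-treated cells against empty vector 13 were higher and 2 lower (median 0.25). Cdc6, which loads the replicative helicase, had 34.3 and 36.6 CPM with empty vector, 44.5 and 40.9 with DMSO and 19.7 and 19.6 with UO126 (-0.85 ± 0.088, adjusted p = 4.5e-06). Cdt1, its partner, had 73.1 and 72.6 CPM with empty vector, 114 and 106 with DMSO and 53.7 and 61.4 with UO126 (-0.34 ± 0.078). Uhrf1, which maintains DNA methylation, had 138 and 137 CPM with empty vector, 194 and 200.1 with DMSO and 107 and 112 with UO126 (-0.32 ± 0.061). Ccne1, which encodes cyclin E1, was lower than empty vector in both c-Fos groups, with 29.4 and 30.7 CPM with empty vector, 18 and 20.5 with DMSO and 13.3 and 15.1 with UO126 (-1.08 ± 0.099). The changes were small for most members, and the lowest log2 fold change of the 22 was that of Ccne1. Tk1, which encodes thymidine kinase and is not on the list, had 81.1 and 85.7 CPM with empty vector, 82.3 and 87.4 with DMSO and 35.7 and 40.2 with UO126.

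Of 20 mitotic genes tested, 3 were higher and 1 lower (median 0.01), 20% called against 37.7% of all genes tested. The 3 higher were 0 without either empty-vector replicate and 6 without UO126 replicate 2, and the 1 lower, Cdk1, was lost without any of the 4 libraries. Among cell cycle brakes, 5 of 13 were higher and 2 lower. The higher count was 3 without empty vector replicate 1, empty vector replicate 2 or UO126 replicate 1, and the lower count was 1 without either empty-vector replicate. Cdkn1a, which encodes the CDK inhibitor p21, had 14.8 and 15.2 CPM with empty vector, 35.4 and 32.8 with DMSO and 74.3 and 74.7 with UO126. Its log2 fold changes were 2.31 ± 0.076 against empty vector and 1.13 ± 0.071 against DMSO (adjusted p = 8.7e-11 and 1.8e-07). Cdkn2b, which encodes p15, had 39.7 and 43.2 CPM with empty vector, 68.5 and 66.9 with DMSO and 83.6 and 82.5 with UO126 (1.00 ± 0.071). Among 14 p53 targets, 4 were higher, Cdkn1a and Mdm2 (0.78 ± 0.075) included, and 2 lower, 42.9% called and so near the share of all genes.

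Myc and ribosome biogenesis genes were lower than with DMSO in 19 of 19, with a median of -0.51, and 17 of 19 were higher with DMSO than with empty vector (median 0.37). Against empty vector 8 were lower with UO126 and 1 higher (median -0.13). Myc had 161 and 179.5 CPM with empty vector, 101 and 110.1 with DMSO and 82.2 and 86.6 with UO126 (-1.01 ± 0.076 against empty vector). Nolc1 and Nop56, which encode nucleolar proteins, had log2 fold changes of -0.51 ± 0.060 and -0.45 ± 0.062 against empty vector. Odc1, the first enzyme of polyamine synthesis and a known Myc target, was the 1 that was higher, at 32.6 and 33.1 CPM with empty vector, 64.8 and 70.5 with DMSO and 46.2 and 48.5 with UO126.

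Other genes lay below both empty vector and DMSO under UO126. They were chosen by that pattern, so no test of it is given. Lamb1, a laminin chain of basement membranes, had 242 and 243 CPM with empty vector, 229.7 and 219.9 with DMSO and 101 and 111 with UO126. Slc9a3r1, a scaffold under the membrane, had 137 and 139 CPM with empty vector, 148 and 154 with DMSO and 62.4 and 64.5 with UO126. Dok1, an adaptor that restrains RAS signalling, had 21.5 and 22.7 CPM with empty vector, 24.9 and 27.0 with DMSO and 7.01 and 8.58 with UO126. Fjx1, a homologue of fly four-jointed, had 49.1 and 55.4 CPM with empty vector, 48.3 and 52.1 with DMSO and 22.2 and 20.8 with UO126, and Rmi2, of the complex that resolves recombining DNA, had 6.15 and 6.02 CPM with empty vector, 6.86 and 6.70 with DMSO and 2.37 and 2.91 with UO126. Spred1, a RAS brake, had 124 and 117 CPM with empty vector, 125 and 134 with DMSO and 66.9 and 47.1 with UO126. Its UO126 libraries differed by more than 0.5 on the log2 scale, and the log2 fold change against empty vector was -1.34 without UO126 replicate 1 and -0.82 without replicate 2. Frmd7 varied more, at 2.28 and 0.738 CPM with UO126, with a log2 fold change of -2.77 without UO126 replicate 1 and -1.15 without replicate 2. With afatinib every gene of this paragraph also lay below empty vector and DMSO. Lamb1 stood there at 114 and 117 CPM, Slc9a3r1 at 63.6 and 59.3, Dok1 at 8.23 and 7.43 and Fjx1 at 23.7 and 20.7.

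The BCL2 family moved both ways, with 4 of 12 members higher and 4 lower. The lower count was 2 without either empty-vector replicate. Bcl2, the survival gene, had 33.1 and 31.3 CPM with empty vector, 27.3 and 26.0 with DMSO and 10.2 and 9.59 with UO126, a log2 fold change of -1.70 ± 0.10 against empty vector (adjusted p = 2.0e-08). Bcl2l11, which encodes the death-promoting protein BIM, had 4.16 and 4.08 CPM with empty vector, 6.75 and 5.51 with DMSO and 9.82 and 9.78 with UO126 (1.25 ± 0.17). Pmaip1, which encodes NOXA, had 76.5 and 70.2 CPM with empty vector, 79.5 and 91.9 with DMSO and 146 and 119 with UO126 (0.86 ± 0.099). Bid, which encodes a BH3-only protein, was lower (-0.50 ± 0.076). For Bcl2 the UO126 libraries lay below all empty-vector and DMSO libraries, and for Bcl2l11 and Pmaip1 above all of them. With afatinib Bcl2l11 stood at 7.01 and 10.1 CPM, which overlapped UO126.

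Most targets of ATF4, the transcription factor of the amino acid and integrated stress response, were higher with UO126 than with empty vector or DMSO. Of 25 tested, 16 were higher and 2 lower than with empty vector (median 0.43), and the lower count was 1 without empty vector replicate 1, empty vector replicate 2 or UO126 replicate 1. Against DMSO 20 were higher and 0 lower (median 0.47). DMSO-treated cells against empty vector had 5 higher and 9 lower (median -0.05). Chac1, a glutathione-degrading enzyme, had 25.9 and 25.2 CPM with empty vector, 29.7 and 29.2 with DMSO and 94.7 and 93.3 with UO126 (1.88 ± 0.074). Trib3, a pseudokinase that feeds back on ATF4, had 17.4 and 17.7 CPM with empty vector, 15.6 and 16.1 with DMSO and 54.1 and 56.5 with UO126 (1.66 ± 0.077). Ddit3, which encodes CHOP, had 44.6 and 46.3 CPM with empty vector, 40.1 and 38.1 with DMSO and 78.3 and 84.0 with UO126 (0.84 ± 0.070), and Mthfd2, a mitochondrial folate enzyme, had 146 and 145 CPM with empty vector, 149.7 and 158 with DMSO and 281 and 261 with UO126 (0.90 ± 0.066). Atf4 itself rose in steps, with 335 and 335 CPM with empty vector, 413 and 421 with DMSO and 581 and 578 with UO126. The 3 groups did not overlap for Atf4. Asns, asparagine synthetase, had 313 and 314 CPM with empty vector, 307 and 312 with DMSO and 445 and 440.0 with UO126. With afatinib Chac1 stood at 182 and 164 CPM, Trib3 at 118 and 109 and Mthfd2 at 329 and 305, all above their UO126 libraries. Ddit3, at 79.4 and 75.4 CPM with afatinib, overlapped its UO126 libraries.

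ER chaperones were higher in 11 of 15 and lower in 0 (median 0.32), with 6 higher and 0 lower against DMSO. Herpud1, an ER membrane protein of protein degradation, had 75.0 and 72.1 CPM with empty vector, 86.5 and 71.4 with DMSO and 159 and 150.3 with UO126 (1.07 ± 0.082). Xbp1, a transcription factor of the unfolded protein response, had 80.6 and 83.0 CPM with empty vector, 111 and 104 with DMSO and 152 and 158 with UO126 (0.92 ± 0.064). Hspa5, which encodes the chaperone BiP, had 1095 and 1116 CPM with empty vector, 1434 and 1401 with DMSO and 1785 and 1744 with UO126 (0.67 ± 0.055). The promoters of Chac1 and Herpud1 are shown because both hold TGATGNAA, the composite element bound by ATF4 with C/EBP proteins, on the opposite strand (capitals). This motif was added after the data were seen.
Chac1 (chr2:119350992-119351241, + strand): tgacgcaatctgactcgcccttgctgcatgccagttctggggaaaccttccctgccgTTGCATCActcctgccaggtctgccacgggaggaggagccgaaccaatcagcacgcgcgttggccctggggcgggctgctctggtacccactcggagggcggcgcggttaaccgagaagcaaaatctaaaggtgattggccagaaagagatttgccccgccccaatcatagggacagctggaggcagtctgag
Herpud1 (chr8:94386179-94386428, + strand): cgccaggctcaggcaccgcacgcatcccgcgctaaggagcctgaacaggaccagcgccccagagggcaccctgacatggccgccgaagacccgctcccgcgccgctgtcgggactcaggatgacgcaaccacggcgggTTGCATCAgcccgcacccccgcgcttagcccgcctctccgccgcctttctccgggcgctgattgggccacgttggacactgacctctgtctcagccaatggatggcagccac
The first capital lay at -193 in Chac1 and at -112 in Herpud1. TGATGNAA was present in 2.36% of tested genes with a promoter and in 7 of 23 promoters of the ATF4 list (30.4%). It was present in 5.03% of genes called at least 2-fold higher and 1.89% of those called at least 2-fold lower.

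Sterol synthesis and uptake genes had the highest share of members called higher among the 33 pathway lists, with 17 of 20 tested members higher and 0 lower (median 0.60). They were 14 higher and 0 lower against DMSO, and 12 higher and 0 lower in DMSO-treated cells against empty vector. Mvd, of the mevalonate pathway, had 47.0 and 49.2 CPM with empty vector, 69.0 and 73.2 with DMSO and 116 and 116 with UO126 (1.27 ± 0.067). In Mvd the 3 groups followed each other without overlap. Lss, lanosterol synthase, differed: it had 131 and 132 CPM with empty vector and 133 and 131 with DMSO, and reached 220.5 and 221 with UO126.

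Several single genes were more than 2-fold above both other groups, chosen by that pattern and given without a test of it. Ptgs2, which encodes cyclooxygenase COX2, had 138 and 135 CPM with empty vector, 183 and 191 with DMSO and 561 and 395 with UO126. Its log2 fold change against empty vector was 1.55 without UO126 replicate 1 and 2.07 without replicate 2. Ptges, the prostaglandin E synthase that acts after it, went the other way relative to DMSO, with 1.17 and 0.777 CPM with empty vector, 16.7 and 16.1 with DMSO and 8.89 and 7.56 with UO126. Acss2, acetyl-CoA synthetase of the cytosol, had 9.70 and 11.2 CPM with empty vector, 10.9 and 13.5 with DMSO and 26.9 and 26.3 with UO126. Rhov, a small GTPase, had 3.85 and 2.62 CPM with empty vector, 4.79 and 4.20 with DMSO and 9.51 and 11.1 with UO126. Peg3, an imprinted zinc finger gene, had 3.55 and 2.62 CPM with empty vector, 2.99 and 1.93 with DMSO and 7.50 and 7.70 with UO126. Mslnl followed the same pattern, at 4.42 and 4.61 CPM with empty vector, 3.48 and 3.24 with DMSO and 9.47 and 10.6 with UO126. With afatinib Peg3 stood at 8.57 and 9.08 CPM, above UO126, and Acss2 at 16.6 and 16.1, between DMSO and UO126. Ptgs2 had 198 and 225 CPM with afatinib, Rhov 3.80 and 4.03 and Mslnl 4.48 and 2.93, all below UO126. Hspa1a, a heat shock protein, and Edn2, an endothelin, belonged here with unequal UO126 libraries, at 14.8 and 6.73 CPM and 6.12 and 11.0 CPM. The log2 fold change of Hspa1a was 0.88 without UO126 replicate 1 and 2.03 without replicate 2, and its call was lost without either empty-vector replicate (adjusted p = 0.081 and 0.12). Edn2 had 1.61 and 0.77 in the same order, with an adjusted p of 0.053 without empty vector replicate 1.

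**Figure D3:**
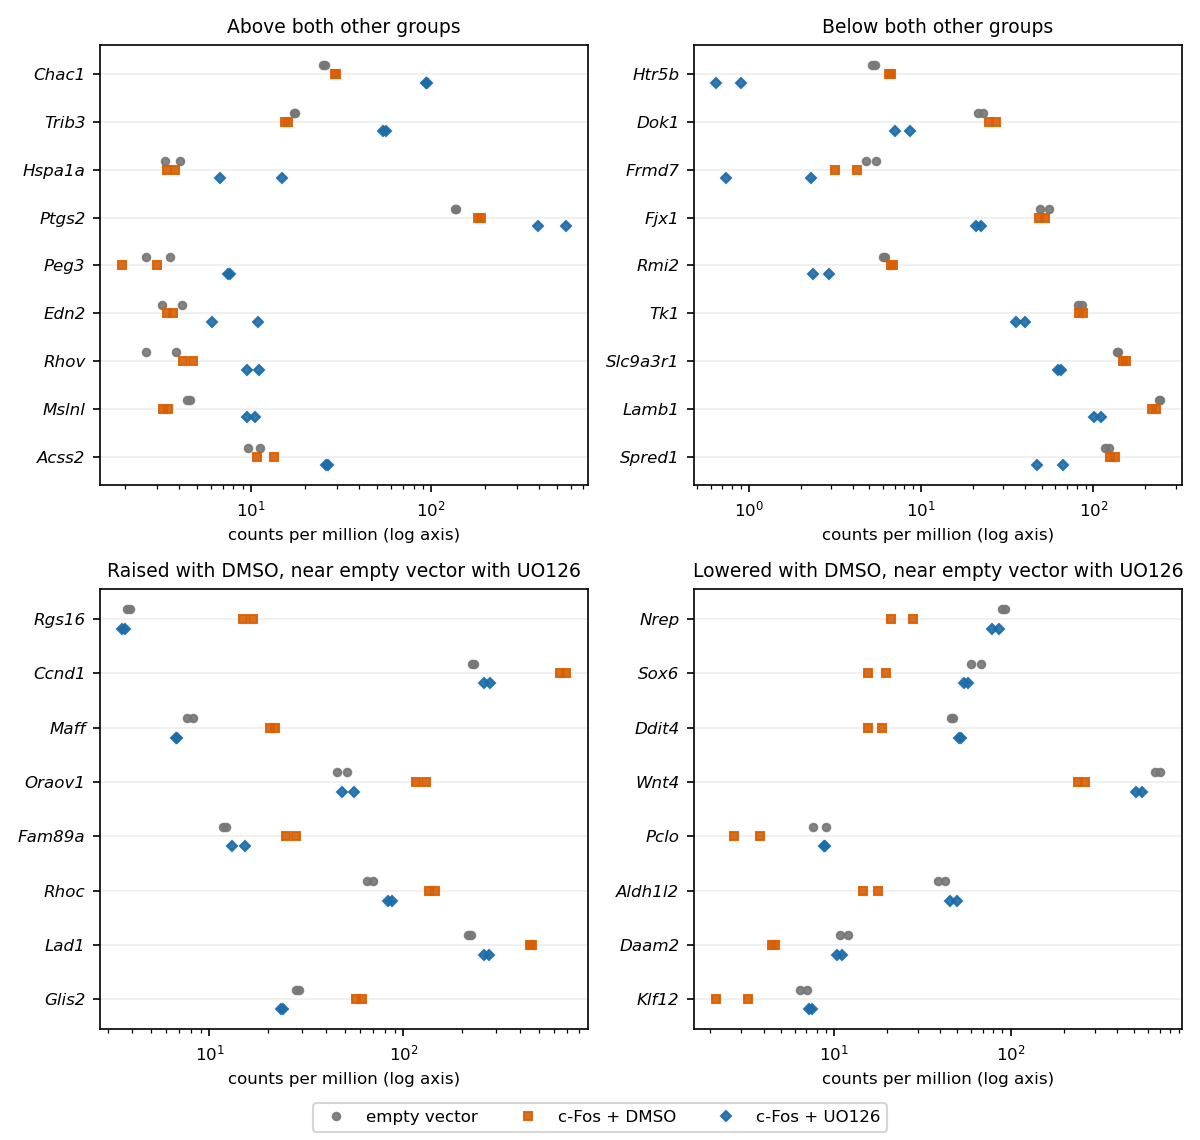
CPM (log axis) in each library of genes that lay above (upper left) or below (upper right) both empty vector and DMSO under UO126, and of genes raised (lower left) or lowered (lower right) with DMSO and near the empty-vector level with UO126. Each point is 1 library, 2 per group, and genes were placed by these values. The UO126 points of Chac1 sit at 94.7 and 93.3 and those of Ccnd1 at 280.2 and 260.5.

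NRF2 and glutathione genes had 7 of 16 higher and 3 lower than with empty vector, and 9 higher and 0 lower than with DMSO. Srxn1, which restores oxidised peroxiredoxins, had 31.9 and 33.6 CPM with empty vector, 72.3 and 71.7 with DMSO and 107 and 114 with UO126 (1.76 ± 0.072). Its promoter holds TGANTCA at -102 and -45, of which 1 overlaps TGANNNNGC, and it is shown for that reason.
Srxn1 (chr2:152105274-152105523, + strand): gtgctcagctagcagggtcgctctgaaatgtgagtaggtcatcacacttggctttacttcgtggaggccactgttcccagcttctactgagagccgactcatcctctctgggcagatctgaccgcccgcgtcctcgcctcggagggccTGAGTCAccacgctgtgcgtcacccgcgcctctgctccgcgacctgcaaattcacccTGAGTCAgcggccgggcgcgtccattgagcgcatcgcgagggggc
Hmox1, heme oxygenase, had 22.9 and 20.3 CPM with empty vector, 24.7 and 25.2 with DMSO and 45.1 and 48.3 with UO126 (1.11 ± 0.11). Gsta3, a glutathione transferase with near-identical copies, remained low at 14 and 14.5 CPM with empty vector, 1.69 and 2.39 with DMSO and 4.20 and 3.64 with UO126 (-1.86 ± 0.15).

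Of 18 tested type I interferon response genes 10 were lower and 1 higher (median -0.73), although the 10 were 5 without empty vector replicate 1. In DMSO-treated cells 14 were lower and 0 higher (median -0.99), and UO126 against DMSO had 5 higher and 0 lower (median 0.43). These 5 were 27.8% of the members tested. Of all genes tested against DMSO, 28.6% were called in either direction and 13.9% higher. Irf9, part of the interferon-activated complex ISGF3, had 11.9 and 10.2 CPM with empty vector, 4.35 and 4.20 with DMSO and 5.98 and 5.40 with UO126 (-0.96 ± 0.13). Ddx58, which encodes the RNA sensor RIG-I, had 73.7 and 62.1 CPM with empty vector, 25.5 and 23.3 with DMSO and 40.9 and 40.9 with UO126 (-0.73 ± 0.098). Stat2, another ISGF3 subunit, was the 1 that was higher, with 28.3 and 26.7 CPM with empty vector, 21.3 and 20.9 with DMSO and 35.1 and 39.0 with UO126 (0.43 ± 0.081). Isg15, a ubiquitin-like protein, fell to 0.804 and 0.553 from 3.77 and 2.48 CPM, with few counts in each library. For Irf9 and Ddx58 the UO126 libraries lay between the other groups.

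Hedgehog pathway genes were lower in 7 of 11 and higher in 1 (median -0.37), with 0 higher without empty vector replicate 2 and 2 without UO126 replicate 1. This was 72.7% called, against 37.7% of all genes tested. In DMSO-treated cells against empty vector 8 were lower and 1 higher (median -0.43). Against DMSO, 4 were higher and 2 lower with UO126 (median 0.28). Gas1, a co-receptor of Hedgehog, had 117 and 120.2 CPM with empty vector, 37.0 and 36.6 with DMSO and 38.1 and 40.7 with UO126 (-1.59 ± 0.079). Boc, another co-receptor, had 42.2 and 34.7 CPM with empty vector, 22.1 and 20.3 with DMSO and 23.9 and 27.9 with UO126 (-0.57 ± 0.11). Ccnd2, which encodes cyclin D2, had 466 and 435 CPM with empty vector, 332 and 337 with DMSO and 152 and 156 with UO126 (-1.55 ± 0.061), with a log2 difference from DMSO of -1.12 ± 0.060. Gli1, the pathway's main readout, had 13.7 and 12.5 CPM with empty vector, 7.51 and 7.50 with DMSO and 10.2 and 11.4 with UO126. It was not called against empty vector (95% interval -0.51 to -0.05, adjusted p = 0.055, but 0.044 without UO126 replicate 2) and was above DMSO by 0.53 ± 0.12 (adjusted p = 0.0051). Ptch1, the receptor and a target, had 16.4 and 13.7 CPM with empty vector, 13.1 and 11.5 with DMSO and 20.3 and 20.8 with UO126. It was the 1 called higher, with an adjusted p of 0.012 that became 0.11 without empty vector replicate 2. Gli2, a transcription factor of the pathway, was lower (-0.55 ± 0.16), with an adjusted p of 0.013 that became 0.19 without empty vector replicate 1 and 0.089 without UO126 replicate 1.

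YAP/TEAD targets were lower in 9 of 14 and higher in 2 (median -0.43, 1 higher without empty vector replicate 2). In DMSO-treated cells against empty vector 9 were lower and 4 higher (median -0.48). Ctgf had 44.7 and 44.0 CPM with empty vector, 33.6 and 33.5 with DMSO and 16.2 and 16.5 with UO126 (-1.44 ± 0.079), and Cyr61 had 466 and 488 CPM with empty vector, 239 and 245 with DMSO and 199 and 211 with UO126 (-1.22 ± 0.061). Both encode matricellular proteins. Wnt targets and feedback genes were lower in 6 of 8 and higher in 0 (median -0.57). With DMSO against empty vector 5 of them were lower and 2 higher (median -0.71). Tcf7l1, a repressor of Wnt targets found in skin stem cells, had 49.8 and 47.1 CPM with empty vector, 20.6 and 21.6 with DMSO and 30.2 and 35.2 with UO126 (-0.57 ± 0.084). Tcf7, a Wnt-responsive factor, had 3.90 and 3.88 CPM with empty vector, 19.9 and 18.9 with DMSO and 1.61 and 1.84 with UO126. Tcf7 thus went from above empty vector to below it, with log2 fold changes of -1.17 ± 0.24 against empty vector and -3.49 ± 0.20 against DMSO.

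FOXO targets had 4 of 17 higher and 8 lower (median -0.22), 70.6% called against 37.7% of all genes tested. In DMSO-treated cells against empty vector 3 were higher and 12 lower (median -0.51). Against DMSO, 8 were higher and 3 lower with UO126 (median 0.33). Txnip, a glucose-uptake inhibitor, had 195 and 228 CPM with empty vector, 75.9 and 82.0 with DMSO and 42.2 and 55.0 with UO126 (-2.12 ± 0.13). Pik3ip1, an inhibitor of PI3K, had 29.2 and 28.0 CPM with empty vector, 14 and 13.3 with DMSO and 11.1 and 11.6 with UO126 (-1.33 ± 0.089). For Txnip the UO126 libraries lay below all others. Glycolysis genes had 7 of 15 higher and 2 lower (1 lower without either empty-vector replicate). Pfkfb3, which makes the activator of phosphofructokinase, had 17.3 and 14.5 CPM with empty vector, 20.2 and 20.7 with DMSO and 30.4 and 32.0 with UO126 (0.97 ± 0.098). Slc2a1, the glucose transporter GLUT1, had 179 and 184 CPM with empty vector, 123 and 123 with DMSO and 266 and 284 with UO126, and the hexokinase gene Hk2 had 90.8 and 88.0 CPM with empty vector, 71.8 and 68.6 with DMSO and 55.2 and 56.2 with UO126. Slc2a1 was therefore above both other groups while Hk2 was below both. Of 12 glutamine genes 2 were higher and 6 lower, and the 6 became 2 without empty vector replicate 1 and 3 without replicate 2. Gpt2, a mitochondrial alanine transaminase, was 1 of the 2 higher, with 34.3 and 34.9 CPM with empty vector, 25.7 and 24.4 with DMSO and 75.2 and 72.6 with UO126 (1.10 ± 0.071).

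Keratinocyte identity genes were mixed. Of 14 tested basal and follicle genes 4 were higher and 7 lower. Itga6, an integrin chain of hemidesmosomes, had 256 and 231 CPM with empty vector, 665 and 632 with DMSO and 528 and 532 with UO126 (1.12 ± 0.066). Trp63, which encodes p63, the basal keratinocyte factor, had 291 and 281 CPM with empty vector, 169 and 171 with DMSO and 161 and 132 with UO126 (-0.97 ± 0.089). Dst, a hemidesmosome linker, had 4695 and 4232 CPM with empty vector, 2292 and 2009.8 with DMSO and 2319 and 2401 with UO126 (-0.92 ± 0.073). Of 13 epithelial-mesenchymal genes 4 were higher and 3 lower. Vim, vimentin, had 3.46 and 3.74 CPM with empty vector, 80.6 and 78.9 with DMSO and 42.5 and 43.3 with UO126 (3.58 ± 0.095), so it lay between the other groups, with a log2 difference from DMSO of -0.89 ± 0.069. Snai2, a repressor of epithelial genes, was lower than with empty vector (-0.78 ± 0.10), and so it was with DMSO (-0.51 ± 0.10).

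**Figure D4:**
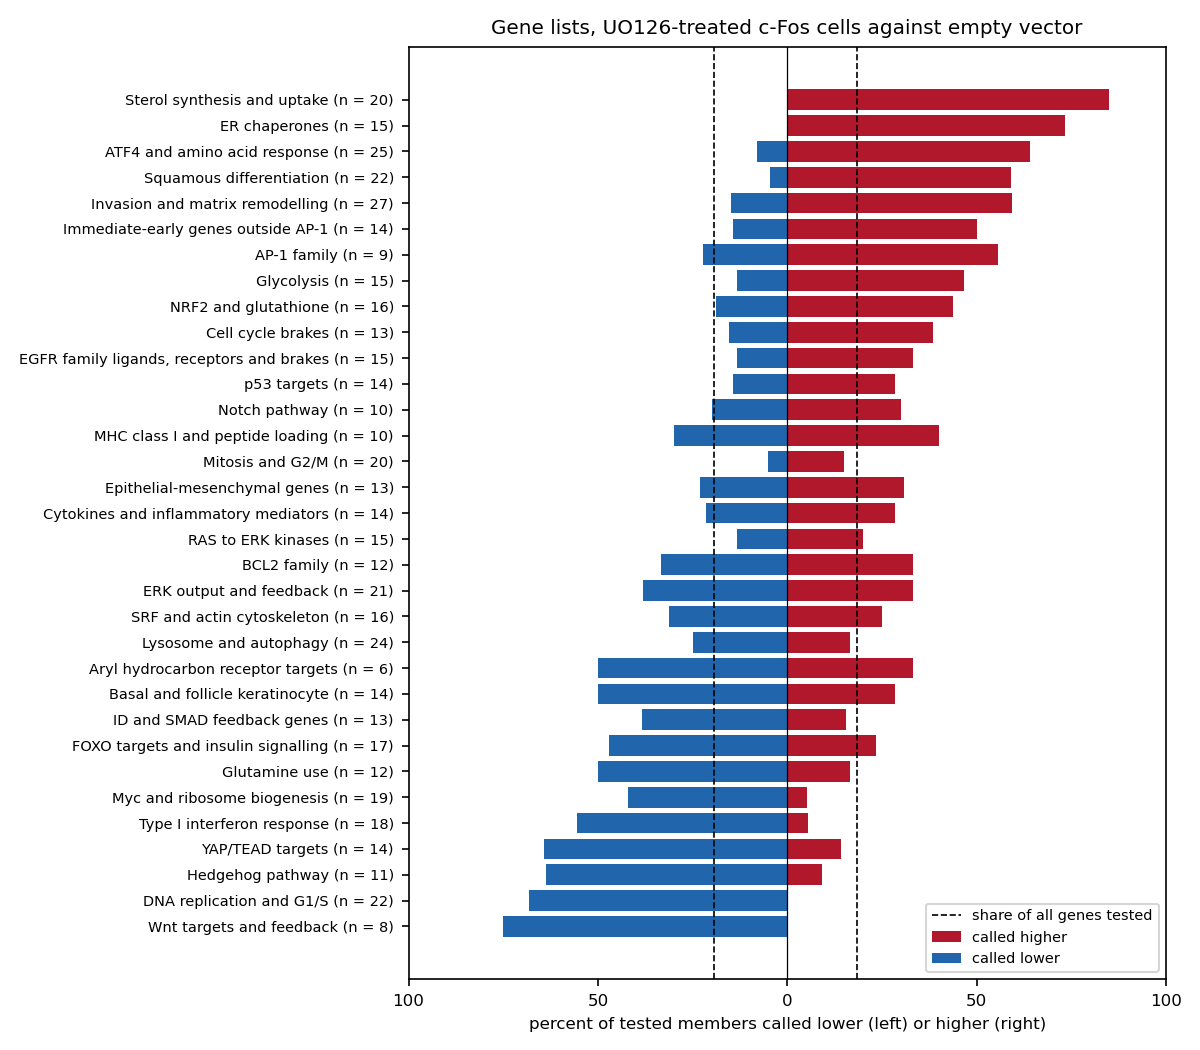
Percent of tested members called higher (right) or lower (left) in UO126-treated c-Fos cells against empty vector for 33 gene lists, with the number of members tested in brackets. Dashed lines mark the shares over all genes tested, 18.3% higher and 19.4% lower. Sterol synthesis has 17 of 20 members called higher, and Wnt targets 6 of 8 called lower.

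The other lists gave smaller or mixed counts, to be read beside the 18.3% higher and 19.4% lower of all genes tested. Immediate-early genes outside AP-1 had 7 of 14 higher and 2 lower, with Klf10, a TGF-beta-inducible factor, at 0.89 ± 0.060. Cytokines had 4 of 14 higher and 3 lower, among them Il1rn, the interleukin-1 receptor antagonist, at 1.49 ± 0.24, and Lif, a cytokine of the interleukin-6 family, at -0.83 ± 0.095. TGF-beta and BMP feedback genes had 2 of 13 higher and 5 lower: Tgfbi, a matrix protein, had 118 and 119 CPM with empty vector and 316 and 337 with UO126, and Bmp4, a BMP ligand, had 29.3 and 28.3 CPM with empty vector and 14.6 and 15.4 with UO126. Notch genes had 3 of 10 higher and 2 lower, or 1 and 1 without empty vector replicate 2. The ligand Dll1 was lower (-1.27 ± 0.076) and the ligand Jag1 higher (0.92 ± 0.075). SRF and actin genes had 4 of 16 higher and 5 lower, and aryl hydrocarbon receptor targets 2 of 6 higher and 3 lower. Tiparp, which feeds back on that receptor, had 40.9 and 41.6 CPM with empty vector, 64.1 and 64.6 with DMSO and 101 and 80.0 with UO126, and Aldh3a1, an aldehyde dehydrogenase, had 22.4 and 22.4 CPM with empty vector, 8.60 and 7.39 with DMSO and 9.29 and 10.1 with UO126. MHC class I genes had 4 of 10 higher and 3 lower, or 2 and 1 without empty vector replicate 1. Lysosome genes had 4 of 24 higher and 6 lower (41.7% called, against 37.7% of all genes tested). The 6 were 3 without empty vector replicate 1, and the 4 were 2 without replicate 2. Sqstm1, the autophagy receptor p62, had the highest fold change of them, at 285 and 282 CPM with empty vector, 317 and 304 with DMSO and 490.4 and 501 with UO126.

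The design limits these values in several ways. The fit had 4 residual degrees of freedom from pairs of libraries. The kit does not mark strand, so overlapping genes on opposite strands cannot be told apart.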

How the data were processed

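RNA was sequenced from 8 libraries in 4 groups of 2. TopHat was the aligner and HOMER the counter, per the series' design text, and the submitters' processing notes also list mm9 and DESeq2, with no role. The authors deposited estimated counts per gene, not normalized, in multiples of 0.5. These were rounded to whole numbers for the fit, and 26 of 24909 entries with date-like symbols were dropped. Genes were kept at a count minimum of 10 (filterByExpr, total minimum 15). All 8 libraries were scaled by TMM and fitted with edgeR 4.0.16 (R 4.3.3, limma 3.58.1), using the robust quasi-likelihood test with 4 residual degrees of freedom (biological coefficient of variation 0.0596). The p-values were adjusted by Benjamini-Hochberg over all 12879 genes. Printed CPM are counts scaled to the TMM-adjusted library total. The fit was tested on simulated data. DESeq2 1.42.0 was an alternative.

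The members and lists were chosen with earlier results of these data known. Named genes were Fos, the 10 largest rises and falls with at least 5 CPM and no overlap of libraries, passing over unnamed transcripts and genes with near-identical copies such as Sprr1a, and genes away from both other groups. Genes back within 0.5 of empty vector on the log2 scale, up to 4 called members of each list, and the kinases were also named. Further list members and Lor, Kcnn4 and Fxyd5 were added after their values were seen. Promoter windows were 250 bases from RefSeq GRCm38.p6, searched on both strands, and were found for 9954 genes. Their coordinates are not those of mm9, on which no sequence was read. A few of these genes are not reported here.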

Additional observations from a re-analysis of the deposited data

How the results depend on the processing

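Depth was similar across libraries. Precision was limited by 2 libraries a group and, in genes with few counts such as Nlrp2, by counting. Which limit was larger was not tested. None of the 222 named genes reversed its direction in an alternative run where it was called there or in the main fit. A change of sign in a gene called in neither was not counted as a reversal. Of 3102 values, 2998 kept the side of the threshold, 89 lost it and 15 gained it. Requiring at least 2-fold left 533 genes higher and 376 lower for UO126-treated c-Fos cells against empty vector, 202 and 146 against DMSO, and 494 and 512 for DMSO against empty vector, by construction. An adjusted p under 0.01 left 1593 lower in the main comparison and 1001 higher and 1144 lower against DMSO. Leaving out each library in turn, with the lone library taken to vary like the other groups, gave 1757 to 2672 higher and 1476 to 2452 lower in the main comparison. The lowest counts of lower genes, 1476 and 1577, came without empty vector replicate 1 and 2. Against DMSO the range was 913 to 2051 higher and 968 to 2063 lower, lowest without DMSO replicate 2. DMSO against empty vector ranged from 1939 to 2396 higher and 1661 to 2035 lower, with 1661 lower when empty vector replicate 1 was left out and 1691 when DMSO replicate 2 was. The cause was not tested. The DESeq2 Wald test called 1957 higher and 1692 lower in the main comparison, and a fit to the 4 libraries compared called 2136 and 2010.

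The deviations of same-numbered libraries correlated at 0.073 between empty vector and UO126, -0.085 between DMSO and UO126 and 0.12 between empty vector and DMSO. The largest in size was -0.21, between UO126 and afatinib. Whether same-numbered libraries shared a culture or batch cannot be read from these correlations. With the replicate number as a block the main comparison called 2171 higher and 2253 lower, UO126 against DMSO 1580 and 1652, and DMSO against empty vector 2554 and 2478.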

Other observations

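A few further genes had large or opposed differences. They were picked after their values were seen. Fxyd5, a regulator of the sodium pump, had 0.260 and 0.243 CPM with empty vector, 8.49 and 8.52 with DMSO and 4.24 and 4.34 with UO126, so it lay between the other groups. Vldlr, a lipoprotein receptor on the ATF4 list, had 155 and 140.0 CPM with empty vector, 52.1 and 49.5 with DMSO and 112 and 110.1 with UO126. Its UO126 libraries lay between the other groups without overlap. Col1a2, a collagen chain among the fibroblast markers, had 0.693 and 1.02 CPM with empty vector, 5.61 and 7.22 with DMSO and 7.14 and 7.20 with UO126. Claudin gene Cldn1, of tight junctions, had 7.45 and 6.60 CPM with empty vector, 19.6 and 21.5 with DMSO and 14 and 11.3 with UO126, and Zeb2, a repressor of epithelial genes, had 15.2 and 11.9 CPM with empty vector, 21.1 and 19.0 with DMSO and 27.8 and 21.7 with UO126. For both genes the UO126 libraries lay above the empty-vector libraries.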
